A study of Mus musculus with 11 samples.

Results

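Toll-like receptors let B cells sense microbial products directly, beside their antigen receptor. The 10 genes described here encode 7 of these receptors (Tlr1, Tlr2, Tlr3, Tlr4, Tlr6, Tlr7 and Tlr9), the receptor-like pair Cd180 and Ly86, and the adaptor Myd88. They were chosen by name, and each was found by its mouse Ensembl identifier, 10 of 48795 genes in the deposited table. The rule uses no measured value, though earlier results of these data were known when the list was made.

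The libraries came from spleens of female mice, 8 to 12 weeks old, on day 10 after intravenous immunization with sheep red blood cells (SRBC). Light zone (LZ) germinal center (GC) B cells were sorted as B220+ CD138neg IgDneg CD38neg Fas+ CD86high CXCR4low from 4 Myc WT mice (mice 1 to 4) and 4 Myc V394D mice (mice 5 to 8, Myc VD below). Memory B cells (MBCs) were sorted as B220+ CD138neg IgDneg CD38+ CD273+ from Myc WT mice 1, 3 and 4, so that these MBCs and LZ B cells share their mice. V394D, at the endogenous Myc locus, replaces a valine of MYC that its partner MIZ1 needs, and leaves binding to MAX in place. All cells passed a depletion of CD43+ cells on beads before sorting, and each library held the cells of 1 mouse. The codes of Myc WT mice 1 to 3 share a prefix, mouse 4 has another and the Myc VD mice a further one. What these prefixes stand for is not stated in the sources used here, and whatever they mark cannot be told apart from the genotype.

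The receptors fall into groups by where they sit and what they bind. TLR1, TLR2 and TLR6 act at the cell surface on bacterial lipoproteins, with TLR2 pairing with either of the other two, and TLR4 binds lipopolysaccharide together with MD-2 (Ly96). TLR3, TLR7 and TLR9 act in endosomes on double-stranded RNA, single-stranded RNA and unmethylated CpG DNA, and need the chaperone UNC93B1 to get there. CD180 (RP105) resembles TLR4 outside the cell, lacks its signaling domain, is carried to the surface by MD-1 (Ly86), and is known for driving B cell proliferation. MYD88 passes on the signal of the TLRs named here other than TLR3.

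The results below turn on Tlr7 and on 4 genes whose MBC and Myc WT LZ levels did not overlap, Tlr1, Tlr9, Cd180 and Ly86. The 250 bases before the start of each of these 4 are shown as the sequence beside their joint pattern (RefSeq, GRCm38.p6, 5′ to 3′ on the strand of the gene). The table of starts held 8 of the 10 genes, and Tlr4 and Tlr7 were not among them. Capitals mark a match, on either strand, to the MYC-MAX E-box CACGTG, the PU.1 site GAGGAAGT, the octamer ATTTGCAT, the NF-kB site GGGANNTTCC or the IRF element GAAANNGAAA.
Tlr1, chr5:64933559-64933808, minus strand: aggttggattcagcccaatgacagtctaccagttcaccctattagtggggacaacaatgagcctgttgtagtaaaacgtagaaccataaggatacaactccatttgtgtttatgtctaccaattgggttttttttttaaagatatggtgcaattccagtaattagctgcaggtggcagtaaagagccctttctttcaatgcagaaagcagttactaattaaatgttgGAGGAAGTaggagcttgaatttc
Tlr9, chr9:106222348-106222597, plus strand: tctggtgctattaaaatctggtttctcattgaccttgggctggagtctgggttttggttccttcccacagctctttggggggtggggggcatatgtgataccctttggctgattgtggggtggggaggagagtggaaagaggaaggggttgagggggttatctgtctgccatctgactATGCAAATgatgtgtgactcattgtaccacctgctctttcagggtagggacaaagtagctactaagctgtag
Cd180, chr13:102693308-102693557, plus strand: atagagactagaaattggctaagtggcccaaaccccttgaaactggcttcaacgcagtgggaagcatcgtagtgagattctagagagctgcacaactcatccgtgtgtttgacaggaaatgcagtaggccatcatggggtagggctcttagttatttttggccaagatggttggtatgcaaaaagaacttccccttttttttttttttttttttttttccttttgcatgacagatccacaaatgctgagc
Ly86, chr13:37345095-37345344, plus strand: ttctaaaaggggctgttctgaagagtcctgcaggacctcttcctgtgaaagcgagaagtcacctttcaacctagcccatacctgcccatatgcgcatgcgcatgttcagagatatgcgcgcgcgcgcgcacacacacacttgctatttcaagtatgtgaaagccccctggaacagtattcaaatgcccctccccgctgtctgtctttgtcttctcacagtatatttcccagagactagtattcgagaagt

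The window of Tlr9 held the octamer, bound by OCT-1 and by the B cell factor OCT-2, 72 bases before the start. That of Tlr1 held a PU.1 site, a motif of a B cell and myeloid factor, 23 bases before the start. Among all 32851 windows of this length, 1.60% held the octamer and 2.44% the PU.1 site. Neither Cd180 nor Ly86 held any of these 5 motifs. Of the other genes searched, Tlr3 held the NF-kB site (1.21% of windows) and Myd88 the IRF element (2.98%). The E-box was in 0 of the 8 windows and in 6.02% of all. Outside the capitals, CCAAT on either strand was in the windows of Tlr1 and Cd180 (33.8% of all) and TATAAA in those of Tlr6 and Myd88 (12.4%). A match is a description of the letters, not a site in use.

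Values are transcript abundances in TPM, which divide estimated reads by transcript length and scale each library to the same total, so that levels of different genes can be set side by side but the number of reads is unknown. In bulk RNA, fewer cells of a type and less RNA per cell cannot be told apart. Between 15460 and 19537 genes were above 0 in Myc WT LZ, 13169 to 16421 in Myc VD LZ and 11527 to 16040 in MBCs, and ribosomal RNA took 35.7 to 44.5%, 44.1 to 61.3% and 36.1 to 37.5% of TPM. The 6 MBC markers summed to 506.16 to 816.28 TPM in MBCs against 17.41 to 36.02 in all LZ libraries, with 5 of the 6 above every LZ library in each MBC library and Nt5e overlapping. The 8 GC markers summed to 200.2 to 274.58 against 756.04 to 1332.17 TPM. Of the LZ markers, Cd86 was lower in every MBC library (162.89 to 196.67 TPM) than in any Myc WT LZ library (207.2 to 289.88), while Cd83 overlapped (155.07 to 306.58 against 165.92 to 273.74). The 5 B cell markers (Ms4a1, Cd79a, Cd79b, Pax5, Cd22) also summed higher in MBCs, 3281.66 to 4750.35 TPM, than in Myc WT LZ, 2139.09 to 2747.54, or Myc VD LZ, 1687.56 to 2846.16. MBC library 3 stood apart, with 4298.2 TPM of 4 erythroid markers against 4.74 and 21.77 in the other MBC libraries, and results that rest on it are given with and without it.

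Among Myc WT LZ B cells, Cd180 was the most abundant of the 10 genes at 745 ± 44 TPM (SD, n = 4), followed by Ly86 at 172 ± 25.6, Tlr1 at 108 ± 16.6 and Tlr9 at 52.5 ± 5.28 TPM. These 4 levels did not overlap between neighbours, nor did that of Tlr9 with Tlr4, at 12.5 ± 3.17 TPM. Tlr4, Myd88 (8.79 ± 1.37), Tlr6 (5.49 ± 1.93), Tlr3 (2.49 ± 1.57) and Tlr7 (1.15 ± 0.243) each overlapped the next in this order. Tlr2 was lowest at 0.488 ± 0.220 TPM, below Tlr7 in every Myc WT LZ library. The order of means was the same in Myc VD LZ, where the spread was wider and only Cd180 and Tlr2 kept clear of their neighbours. In MBCs Tlr7 had rank 5, against rank 9 of 10 genes in both LZ groups, though its range overlapped that of Tlr3. Tlr3 went from rank 8 to rank 6 there, Tlr4 from 5 to 7, Tlr6 from 7 to 8 and Myd88 from 6 to 9, each with ranges that overlapped the next. These 4 ranks rest on MBC library 3, the highest in Tlr3 (76.73 TPM), Tlr4 (27.22) and Tlr6 (31.62) and the lowest in Myd88 (3.01). In MBC libraries 1 and 4 the 4 genes all lay between 2.65 and 12.18 TPM.

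**Figure D1:**
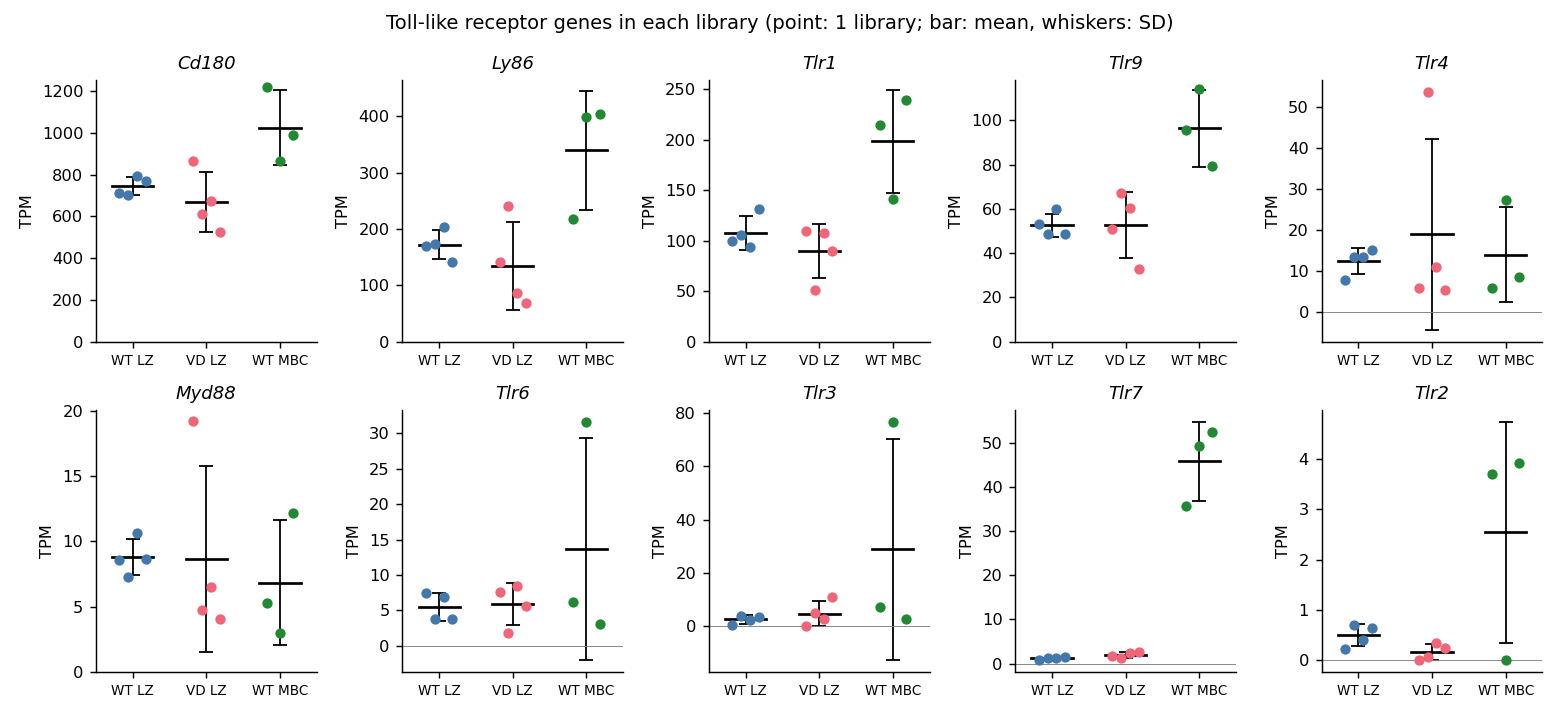
TPM of each of the 10 genes (vertical axes, each on its own scale) in Myc WT LZ, Myc VD LZ and Myc WT MBC libraries, with 1 point per library, a bar at the mean and whiskers of 1 SD. Tlr7 lay between 35.65 and 52.54 TPM in MBCs and at or below 2.72 TPM in every LZ library, while Tlr3, Tlr6 and Tlr4 in MBCs and Tlr4 and Myd88 in Myc VD LZ were each spread by 1 high library.

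The comparison of MBCs with LZ B cells of Myc WT mice asks which of these sensors differ between the 2 cell types. The sort did not select MBCs by GC origin. Tlr7 rose about 40-fold and was the 1 gene of 10 that passed the test. Tlr1, Tlr9, Cd180 and Ly86 were 1.38 to 1.97 times as abundant in MBCs, with no overlap between groups, but missed the adjusted threshold. Tlr2, Tlr3, Tlr4, Tlr6 and Myd88 overlapped between the groups.

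Tlr7 (ENSMUSG00000044583, chrX:167304929-167330558 of GRCm38, minus strand), the sensor of single-stranded RNA, was at 0.82, 1.23, 1.16 and 1.40 TPM in Myc WT LZ mice 1 to 4 and at 35.65, 49.41 and 52.54 TPM in MBCs of mice 1, 3 and 4. Every MBC library was far above every LZ library, and each of the 3 mice showed the difference within itself. The mean was 39.8 times higher in MBCs. The log2(TPM + 1) difference, a scale that understates changes of low genes, was 4.43 with a standard error of 0.42 and a 95% interval of 3.49 to 5.38 (two-sided limma test over the 13245 genes averaging 1 TPM or more, Benjamini-Hochberg adjusted p = 0.00146). The exact permutation p was 0.0286, the smallest that 3 libraries against 4 can give. In all 18 other settings the difference was called, between 3.97 and 5.20. When the shared mice were used as a replicate block, Tlr7 was again the 1 member called.

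Markers of other cells moved with this comparison. The 10 myeloid markers summed to 123.38, 67.09 and 276.14 TPM in MBC libraries 1, 3 and 4 against 14.26 to 25.74 in Myc WT LZ, with 2 to 4 of the 10 listed at 0 in each MBC library. In libraries 1, 3 and 4, 6, 6 and 8 of the 10 were above every LZ library, Csf1r, Itgam, Cd68 and Tyrobp in all 3. Fcer1g was at 53.76, 0 and 62.28 TPM, Cd14 at 2.11, 0 and 1.90, and Lyz2 at 0.15, 31.16 and 135.59. The 5 dendritic cell markers summed to 15.85, 16.50 and 23.81 TPM against 7.14 to 26.35 in all LZ libraries, with 1, 0 and 2 of them above every LZ library; the 1 in library 1 was Siglech, of plasmacytoid dendritic cells, which also use Tlr7 and Tlr9. The 5 markers of marginal zone B cells, a splenic B cell type outside the GC, summed to 208.04, 405.78 and 321.62 TPM in MBC libraries 1, 3 and 4 against 184.62 to 209.20 in Myc WT LZ, and 1, 4 and 4 of the 5 were above every LZ library. The sums of 5 plasma cell markers overlapped LZ, with 3, 1 and 2 above every LZ library. Those of 6 T cell markers, at 26.13, 0 and 31.23 TPM, were below every Myc WT LZ library. Most of each sum above 0 was Lck, at 32.98 to 66.53 TPM in Myc WT LZ and 26.13, 0 and 18.75 TPM in MBCs. Above every LZ library were 0, 0 and 3 of the 6, namely Cd3d (1.0 TPM), Cd3g (1.37) and Cd8a (3.0) in MBC library 4. The part of these other cells in the levels of Tlr7 and of the genes below was not tested.

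Among the endosomal receptors, Tlr9 (ENSMUSG00000045322), the sensor of CpG DNA, was at 52.96, 48.77, 59.86 and 48.57 TPM in Myc WT LZ and 95.69, 114.32 and 79.38 TPM in MBCs. All MBC libraries were above all LZ libraries, by a log2 difference of 0.85 with a standard error of 0.25 (limma, adjusted p = 0.0632). Tlr3 (ENSMUSG00000031639), which binds double-stranded RNA and does not use MYD88, was at 0.34, 3.89, 2.35 and 3.37 TPM in Myc WT LZ and at 7.13, 76.73 and 2.65 TPM in MBCs. Its high mean in MBCs came from library 3 (limma difference of 2.08 with a standard error of 1.00 on the log2 scale, adjusted p = 0.221), and without that library the difference was 0.80.

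Among the 3 lipoprotein receptors, Tlr1 alone separated the groups. Tlr1 (ENSMUSG00000044827) was at 99.66, 105.99, 93.24 and 131.14 TPM in Myc WT LZ and at 214.22, 141.60 and 239.77 TPM in MBCs, with no overlap (log2 difference 0.86, standard error 0.26, limma adjusted p = 0.0700). Tlr6 (ENSMUSG00000051498), its neighbour on chromosome 5, was at 7.39, 3.83, 6.93 and 3.82 TPM in Myc WT LZ and at 6.23, 31.62 and 3.09 TPM in MBCs, where library 3 was high and the others lay in or below the LZ range. Its log2 difference was 0.66 with that library and -0.21 without it, called in neither case. The 2 genes share sequence: 13.6% of the 50-base words of Tlr1 transcripts also occur in Tlr6 and 12.3% of those of Tlr6 in Tlr1, so that their reads had to be divided in part by the estimate. Tlr2 (ENSMUSG00000027995), the partner of both, was at 0.22, 0.70, 0.40 and 0.63 TPM in Myc WT LZ and at 3.71, 0 and 3.92 TPM in MBCs. Its 2 values above 0 in MBCs were in libraries 1 and 4. The myeloid marker sums in libraries 1, 3 and 4 are given above, and their part was not tested. Tlr2 reached the mean of 1 TPM needed for the test only through MBC libraries 1 and 4, so its values are given as a description. Without MBC library 3, in which Tlr1 was lowest of the MBC libraries, limma called Tlr1 by 1.08 (adjusted p = 0.0225).

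Cd180 (ENSMUSG00000021624), the abundant TLR4 homolog, was at 712.82, 702.03, 792.51 and 771.02 TPM in Myc WT LZ and at 1219.04, 864.29 and 989.40 TPM in MBCs. Its partner Ly86 (ENSMUSG00000021423) was at 169.27, 172.78, 204.46 and 142.03 TPM in Myc WT LZ and at 217.27, 398.32 and 403.63 TPM in MBCs. Both were higher in every MBC library than in any Myc WT LZ library, but they differed in order, since Cd180 was highest in MBC library 1 and Ly86 lowest there. By limma the log2 difference of Cd180 was 0.45 (standard error 0.17, adjusted p = 0.140) and that of Ly86 0.93 (standard error 0.27, adjusted p = 0.0643). Cd180 lies over Mast4 on the opposite strand (at most 76.55 TPM), and the quantification was stated to be strand-specific.

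Tlr4 (ENSMUSG00000039005), the lipopolysaccharide receptor, was at 7.90, 13.58, 13.40 and 15.14 TPM in Myc WT LZ and at 6.0, 27.22 and 8.72 TPM in MBCs. Myd88 (ENSMUSG00000032508), the shared adaptor, was at 8.56, 7.29, 10.62 and 8.68 TPM in Myc WT LZ and at 5.30, 3.01 and 12.18 TPM in MBCs. The groups overlapped for both, with the highest Tlr4 and the lowest Myd88 in MBC library 3. Their log2 differences were -0.08 (95% interval -1.31 to 1.15) and -0.49 (-1.64 to 0.67), wide enough that a change of 2-fold in either direction of Tlr4 cannot be told from none. With each MBC library left out they ran from -0.68 to 0.33 and from -0.95 to -0.09, and without library 3 they were -0.68 and -0.09.

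Counted over the list, 1 of 10 genes was called higher and 0 lower, where 4.17% of all 13245 genes tested were called higher and 5.04% lower. For 5 of 10 every MBC library was above every Myc WT LZ library, against 11.8% of all genes, and for 0 of 10 every MBC library was below, against 14.4%. Taking an unadjusted p under 0.05 from limma, the same 5 were higher and 0 lower, against 11.3% and 15.8% of all genes. The median log2 difference was 0.85 for the 10 genes and -0.14 for all genes tested, where Tlr2 is counted though it passed the filter only through MBCs.

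**Figure D2:**
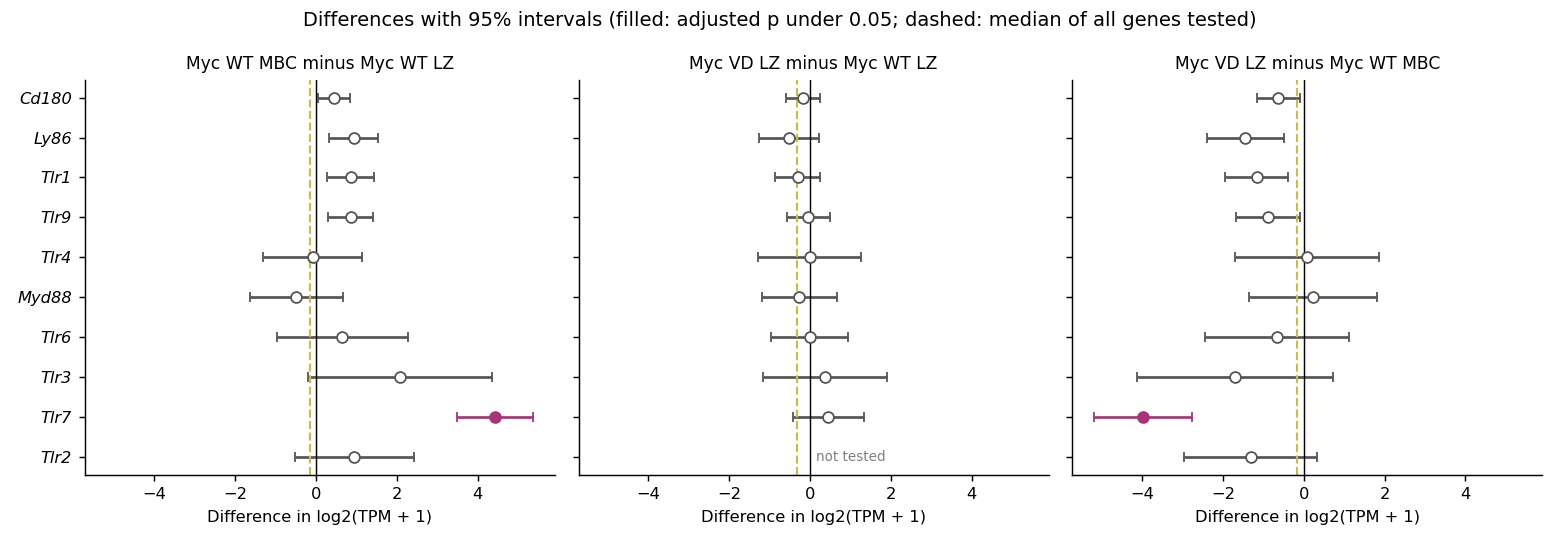
Differences in log2(TPM + 1) of each gene (horizontal axis) with 95% intervals from limma, for Myc WT MBCs minus Myc WT LZ, Myc VD LZ minus Myc WT LZ, and Myc VD LZ minus Myc WT MBCs; filled points passed an adjusted p under 0.05, and the dashed line is the median of all genes tested. Tlr7 stands at 4.43 in the left panel and -3.98 in the right one, and in the middle panel every interval holds 0.

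Because the B cell markers summed higher in MBCs too, the genes were also set relative to that sum, a scaling chosen after seeing the data. It moved the median of all genes tested from -0.14 to -0.64, and the calls from 552 higher and 667 lower to 278 and 1681. Tlr7 was then still higher by 3.97 on the log2 scale and called. The differences of Ly86, Tlr1 and Tlr9 shrank to 0.34, 0.26 and 0.26, and Cd180 turned to -0.15, none of them called.

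**Figure D3:**
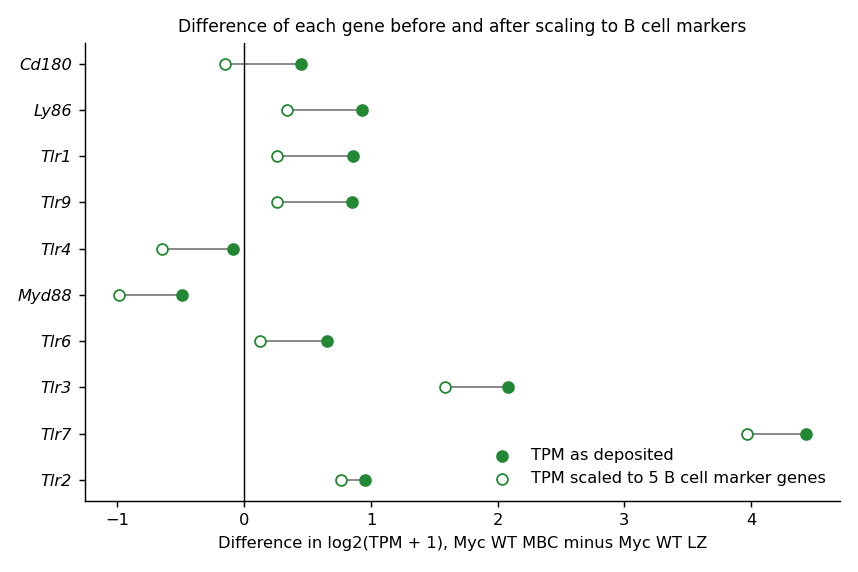
Difference in log2(TPM + 1) between Myc WT MBCs and Myc WT LZ (horizontal axis) for each gene, as deposited (filled) and after scaling each library to the summed TPM of 5 B cell markers (open). All 10 values moved down; Tlr7 stayed at 3.97, and Cd180 went from 0.45 to -0.15.

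Ratios within a library move with such scaling only through the 1 TPM added to each gene. The log2 ratio of Tlr9 to Tlr7 was 4.64 ± 0.25 (SD, n = 4) in Myc WT LZ and 1.06 ± 0.42 (SD, n = 3) in MBCs, with no overlap. The difference of -3.58 had an exact permutation p of 0.0286, and 0.114 after adjustment over the 4 ratios and shares tested in each comparison. Since 0.0286 is the smallest p possible here, 1 quantity alone at that value cannot fall under 0.05 after this adjustment. Of the summed TPM of the 7 receptors, Tlr7 took 0.484 to 0.691% in Myc WT LZ libraries and 9.67 to 13.5% in MBC libraries. The share of the endosomal receptors Tlr3, Tlr7 and Tlr9 together was 31.0 ± 3.98% (SD, n = 4) in Myc WT LZ and 42.2 ± 10.8% (SD, n = 3) in MBCs, which overlapped (exact permutation p = 0.0571, adjusted 0.114). Without MBC library 3, at 54.5%, the difference in this share fell from 11.2 to 5.00 percentage points. The ratios of Cd180 to Ly86 and of Tlr1 to Tlr6 overlapped too, with adjusted exact permutation p = 0.343 and 0.886.

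**Figure D4:**
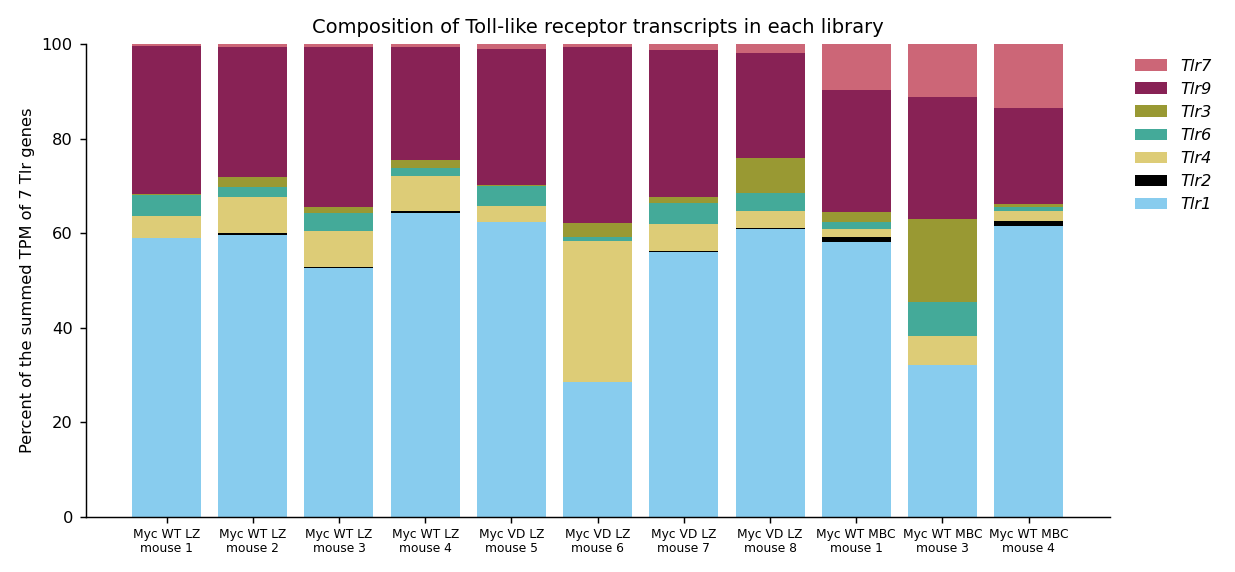
Share of each of 7 receptor genes in their summed TPM (vertical axis, percent) in each of the 11 libraries. Tlr7, at the top of each bar, took 9.67 to 13.5% in MBCs and at most 1.84% in LZ libraries; Tlr4 was high in Myc VD LZ mouse 6, and Tlr3 and Tlr6 in MBC library 3.

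The comparison of Myc VD with Myc WT LZ B cells asks whether loss of the MYC-MIZ1 contact alters these genes in the GC. None of the 9 genes tested passed, and in all 9 the genotypes overlapped. Tlr2, with a mean under 1 TPM, was not in the test. The spread among the Myc VD mice was wider than among the Myc WT mice for 9 of the 10 genes, and 2 of them, Tlr4 and Myd88, had 1 mouse far above the other 3.

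Cd180 was at 862.82, 609.96, 674.72 and 525.79 TPM in Myc VD mice 5 to 8, on both sides of the Myc WT range (log2 difference -0.18, standard error 0.19, 95% interval -0.60 to 0.24, limma adjusted p = 0.659). Ly86 was at 142.14, 241.32, 87.10 and 67.74 TPM, lower than in any Myc WT mouse in mice 7 and 8 and higher than in any Myc WT mouse in mouse 6 (-0.51, standard error 0.34, interval -1.26 to 0.23, limma adjusted p = 0.469). The pair therefore differed among the mice in direction, with mouse 5 highest in Cd180 and mouse 6 in Ly86.

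Tlr1 was at 109.48, 51.58, 108.03 and 90.20 TPM in Myc VD LZ, with mice 6 and 8 below all Myc WT mice (log2 difference -0.30, standard error 0.26, limma adjusted p = 0.573). Tlr9 was at 50.82, 67.38, 60.28 and 32.91 TPM, a mean of 52.8 against 52.5 TPM in Myc WT LZ, and the 95% interval of its log2 difference ran from -0.58 to 0.51. Tlr7 was at 1.77, 1.18, 2.28 and 2.72 TPM, and 3 of the 4 values were above every Myc WT mouse (log2 difference 0.45, standard error 0.40, interval -0.42 to 1.33, limma adjusted p = 0.585). Its exact permutation p was 0.0857.

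Tlr4, Myd88, Tlr3 and Tlr6, all under 20 TPM on average, varied widely among the Myc VD mice. Tlr4 was at 5.99, 53.66, 11.07 and 5.40 TPM in Myc VD LZ, where mouse 6 was the highest of all 11 libraries and mice 5 and 8 were below every Myc WT mouse. Myd88 was at 19.18, 4.75, 6.48 and 4.04 TPM, with mouse 5 above and the other 3 below every Myc WT mouse. Tlr3 was at 0.04, 5.07, 2.61 and 10.94 TPM, and Tlr6 at 7.60, 1.80, 8.50 and 5.66 TPM, both around the Myc WT levels. Their log2 differences lay between -0.26 and 0.38 with limma adjusted p from 0.791 to 0.996. Tlr2 was at 0, 0.06, 0.33 and 0.24 TPM, under 1 TPM in each mouse as in Myc WT LZ.

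Of the 9 genes, 0 were called higher and 0 lower by limma, where 0.00777% of 12869 genes tested were called higher and 0.0389% lower. Before adjustment, at p under 0.05, the counts of members were again 0 and 0, against 1.24% of all genes higher and 15.7% lower, and by groups that do not overlap 0 and 0, against 0.816% and 9.16%. The median log2 difference was -0.03 for the 9 genes and -0.31 for all genes tested. Rescaling the libraries by the median ratio took the all-gene median to -0.01 and turned 6 of the 9 small differences from negative to positive, so no direction is given for them. Tlr7 stayed positive and Ly86 negative in every setting run. Within the library, the Tlr9 to Tlr7 ratio was 4.15 ± 0.73 (SD, n = 4) on the log2 scale in Myc VD LZ, overlapping that of Myc WT LZ (exact permutation p = 0.257, adjusted 0.486). This difference of -0.49 went to -0.76 without mouse 6 (exact permutation p = 0.0286, the smallest possible, adjusted 0.114). Without mouse 8 it went to -0.17 (exact permutation p = 0.571, adjusted 0.714).

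Set against the MBCs with no library in common, the Myc VD LZ B cells placed the genes much as Myc WT LZ did, though cell type and genotype cannot be told apart here. Tlr7 was lower than in MBCs by 3.98 on the log2 scale, a difference of -3.98 with a standard error of 0.55, and was called (limma over 13131 genes, adjusted p = 0.00314, and between -4.50 and -3.38 in all 16 other settings). Ly86 (-1.45, adjusted p = 0.0935), Tlr1 (-1.16, adjusted p = 0.10), Tlr9 (-0.89, adjusted p = 0.202) and Cd180 (-0.62, adjusted p = 0.191) missed the threshold by limma. Cd180, Tlr1, Tlr7 and Tlr9 did not overlap, while Ly86 of Myc VD mouse 6 (241.32 TPM) lay above that of MBC library 1 (217.27 TPM). Scaling by the median ratio turned the calls over all genes from 178 higher and 331 lower to 302 and 230. By count as deposited, 1 of 10 was called lower and 0 higher against 2.52% and 1.36% of all genes, and 4 of 10 were lower without overlap and 0 higher against 12.5% and 5.99%. Both comparisons with MBCs use the same 3 MBC libraries, and are given side by side for that reason. With all 3 groups in 1 fit, Ly86 and Tlr1 were called lower too.

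The other genes of the pathway were taken from a list of 62, of which 55 averaged 1 TPM or more over the MBC and Myc WT LZ libraries. In MBCs 6 were called higher and 0 lower, 10.9% of those tested against 4.17% of all genes. The median log2 difference was 0.31, against -0.14 for all genes, with 36 above and 19 below 0. Without MBC library 1, 3 or 4 the pathway median was 0.12, 0.67 and 0.20, against -0.21, 0.01 and -0.30 for all genes. Relative to the B cell markers it was -0.27, against -0.64 for all genes. Of 12 genes grouped as trafficking and processing, 4 were called higher, 9 were above 0, and the median was 0.89. This group includes the transporter gene Slc15a4 and that of its adaptor, 5430427O19Rik, which is 1 of the 4 called and not counted with the adaptors below. Ctsl in this group (mean 0.425 TPM in Myc WT LZ, 7.91 in MBCs) is counted though it passed the filter only through MBCs. The same holds for Tlr12 (0.475 and 2.25 TPM) among the 55. Kinases and ligases gave 1 called of 17 (median 0.30), inhibitors 1 of 11 (median -0.03), transcription factors 0 of 8 (median 0.18) and adaptors 0 of 4 (median -0.04).

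Ctss, the lysosomal protease cathepsin S, which can cleave endosomal receptors and cleaves the invariant chain, was at 150.47, 171.96, 202.67 and 133.34 TPM in Myc WT LZ and 473.58, 426.40 and 435.96 TPM in MBCs. It rose 2.71-fold, by 1.45 on the log2 scale (standard error 0.21, limma adjusted p = 0.00562), and was called in all 18 other settings. Unc93b1, which carries the nucleic acid receptors to endosomes, was at 107.17, 107.07, 102.92 and 99.38 TPM in Myc WT LZ and 190.59, 172.88 and 183.68 TPM in MBCs. The mice barely differed within each group, and the ratio of means was 1.75 (log2 difference 0.80, standard error 0.19, limma adjusted p = 0.0358).

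Ap3b1, a subunit of the AP-3 coat that sorts cargo to lysosomes, was at 29.15 to 45.66 TPM in Myc WT LZ and 67.38 to 90.47 TPM in MBCs (1.05, standard error 0.28, limma adjusted p = 0.0499). 5430427O19Rik, which encodes the adaptor TASL of the endosomal transporter SLC15A4, was at 7.24 to 9.55 TPM in Myc WT LZ and at 23.38, 49.05 and 23.24 TPM in MBCs (1.73, standard error 0.40, limma adjusted p = 0.0310). Syk, a kinase next to the B cell antigen receptor, was at 73.77 to 98.16 and 149.91 to 193.69 TPM (0.95, standard error 0.22, limma adjusted p = 0.0329). Irak3 (IRAK-M), an inhibitor of signaling below MYD88, was at 0.90 to 4.30 TPM in Myc WT LZ and at 15.10, 25.91 and 19.19 TPM in MBCs, 10.0 times higher (2.90, standard error 0.52, limma adjusted p = 0.0131). None of the 6 overlapped between the groups.

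Without Myc WT LZ mouse 2, which has no MBC library, 1 of these 6, Ctss, stayed under the threshold (limma adjusted p = 0.0268), and the others had adjusted p from 0.0604 to 0.154. With the mouse as a replicate block on those same libraries, Ctss alone was again called (adjusted p = 0.0488), and the others had adjusted p from 0.126 to 0.271. Relative to the B cell markers, Ctss (0.85) and Irak3 (2.44) were called, and Unc93b1 (0.21), Syk (0.35), Ap3b1 (0.46) and 5430427O19Rik (1.17) were not. Leaving out 1 Myc WT LZ library left 2, 1, 1 and 2 genes called for mice 1 to 4. The myeloid markers were higher in MBCs as given above, Ctss, Irak3 and Syk are also used by myeloid cells, and the part of such cells was not tested.

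**Figure D5:**
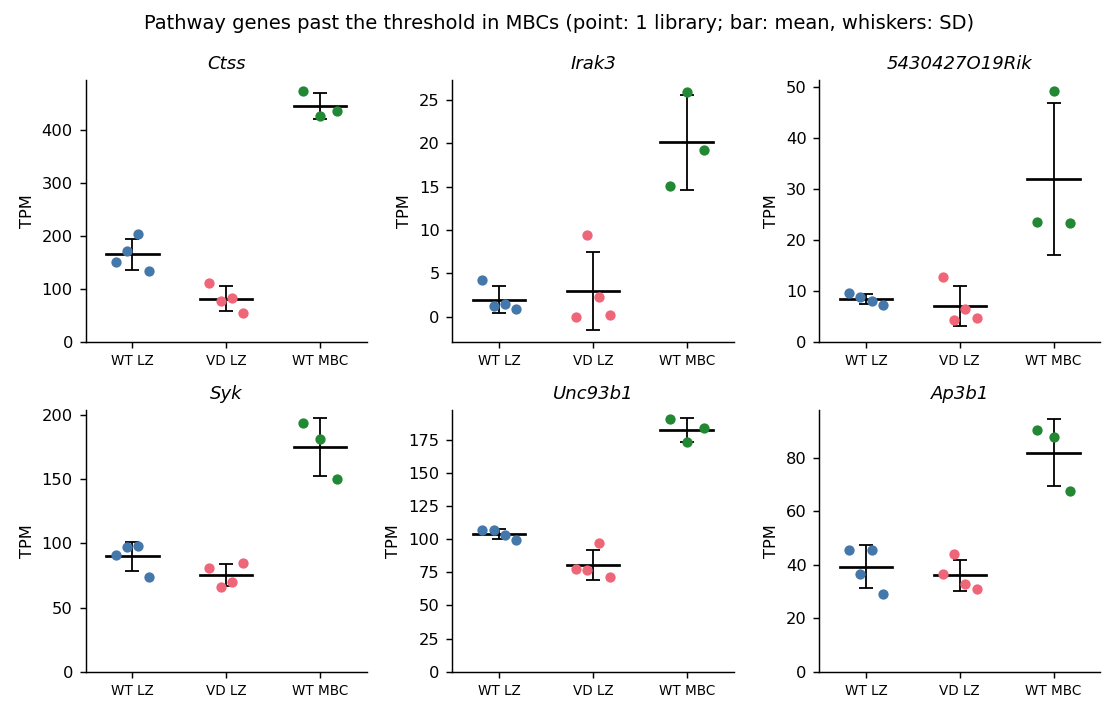
TPM (vertical axes, each on its own scale) of the 6 pathway genes past an adjusted p under 0.05 between Myc WT MBCs and Myc WT LZ, with 1 point per library, a bar at the mean and whiskers of 1 SD. In all 6 the MBC libraries lie above the Myc WT LZ and the Myc VD LZ libraries, and for Ctss the Myc VD libraries lie below those of Myc WT LZ.

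In Myc VD LZ none of the 53 pathway genes tested was called against Myc WT LZ, and the median log2 difference was -0.32, close to the -0.31 of all genes. At an unadjusted p under 0.05 limma gave 8 lower and 0 higher, 15.1% lower against 15.7% of all genes. By groups that do not overlap 9 of 53 were lower, 17.0% against 9.16% of all genes, and 0 higher. Unc93b1 was among these 9, at 77.79, 76.99, 97.05 and 71.22 TPM in Myc VD LZ (log2 difference -0.37, standard error 0.18, limma adjusted p = 0.334). Relative to the median of all genes, the difference of Unc93b1 was -0.06. The 5 lowest in p were Ctss, Ctsb, Ube2n, Ly96 and Trafd1. Ctss was at 110.54, 76.92, 83.03 and 53.21 TPM, below every Myc WT mouse (-1.04, standard error 0.25, limma adjusted p = 0.111), and without mouse 5 it was called lower (-1.21, adjusted p = 0.0429). Ly96 (MD-2), the partner of TLR4, was at 6.17, 0.76, 6.19 and 5.18 TPM against at least 9.27 TPM in every Myc WT mouse (-1.33, standard error 0.46, limma adjusted p = 0.191), and mouse 6, highest in Tlr4, was lowest in Ly96. Ctsb, another lysosomal protease, was at 6.76 to 11.27 against 14.56 to 20.66 TPM, while Ube2n, which builds ubiquitin chains below the adaptor, and Trafd1, an inhibitor, overlapped between genotypes. Against MBCs, Myc VD LZ B cells had 3 of 55 pathway genes called lower, Ctss (-2.49, limma adjusted p = 0.00176), Syk (-1.20, adjusted p = 0.0425) and Unc93b1 (-1.17, adjusted p = 0.0430), and 0 higher. These are 5.45% of those tested, against 2.52% of all genes. Ctss was called in all 16 other settings, Syk in 5 and Unc93b1 in 4, and their differences shrank to -0.50 and -0.47 relative to the B cell markers. The next genes by p, 5430427O19Rik (-2.06) and Hsp90b1 (-1.14), a chaperone of the receptors, had limma adjusted p = 0.0731 and 0.0775.

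The remaining receptors of the mouse were near the floor of the table. Tlr5, Tlr8, Tlr11 and Tlr13 were at or below 0.91 TPM in each of the 11 libraries, and Lbp was listed at 0 in all. Tlr12 was at 5.47, 0 and 1.28 TPM in MBCs and at most 0.86 TPM in LZ libraries.

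Over the 11 libraries, the patterns most like that of Cd180, by the root mean square difference of centred log2(TPM + 1) among 9199 genes averaging 5 TPM or more, were Swap70 (0.12), Rbm25 (0.13) and Cbl (0.15). Tlr9 and Tlr1 came at ranks 583 and 854, and Ly86, the partner of Cd180, at rank 3295. For Tlr9 the nearest were Cd79a (0.14), a signaling chain of the B cell antigen receptor, Ptprc (0.15) and Pigs (0.16), with Cd180 at rank 266. For Tlr7 they were Cd38 (0.40), the marker by which MBCs were sorted, I830077J02Rik (0.41) and Adgre5 (0.44). These likenesses rest on the same 11 libraries and on what all genes share between the 3 groups.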

How the data were processed

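RNA of sorted splenic B cells was sequenced in 11 libraries (NuGEN cDNA kit, Illumina HiSeq). The authors aligned reads with STAR 2.5.2a and quantified them with RSEM 1.3.0 in a strand-specific mode on the Ensembl mouse transcriptome of GRCm38, and deposited TPM (abundances per transcript length, scaled to 1 total) with 2 decimals in 1 table. The annotation release is not given in the sources used here. TPM hold no depth, so the precision of a value is taken from the spread between libraries, and p-values measure that spread. All 11 columns were mapped by their labels. GENCODE M21 gave symbols and coordinates for 48349 of 48795 genes, all 10 members and the 62 pathway genes included. DESeq2, which the authors used, was not used here, since it needs counts.

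Comparisons used trended eBayes fits of limma 3.58.1 (R 4.3.3). Values were log2(TPM + 1) of genes averaging 1 TPM or more, each fit held only its 2 groups, and two-sided p-values were Benjamini-Hochberg adjusted over all genes tested, with calls at 0.05. Single genes and within-library ratios were tested by exact permutation over the 70 groupings of 4 against 4 or 35 of 3 against 4 in Python 3.11.15 (pandas 2.3.3, numpy 2.4.6, scipy 1.17.1). The members and the pathway and marker lists were chosen with earlier results of these data known. Named pathway genes were those past the adjusted threshold and, where fewer than 5 passed, up to 5 at an unadjusted p under 0.05 by p; genes most like Cd180, Tlr9 and Tlr7 were the nearest 3. The title codes show that MBCs and LZ B cells of 1 number came from the same mouse, which pairs them, although their deviations from the group means hardly correlated across genes (r = 0.00507, 0.0115 and -0.0470). Other settings were a smaller pseudocount (0.1), a minimum mean of 5 TPM or none, quantile or median-ratio scaling, the table without 356 ribosomal RNA genes, untrended limma, 1 fit of all groups, a replicate block by mouse, unadjusted p, and each library left out. 1 listed B cell marker is not reported here. Scaling to the other B cell markers and MBC library 3 alone were chosen after seeing the data.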

Additional observations from a re-analysis of the deposited data

Results flagged for a closer look

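Among 20 sets of 4 libraries (each gene in each LZ group), 2 held a library far from the other 3, where chance alone marks about 1 in 20. Tlr4 was at 53.66 TPM in Myc VD LZ mouse 6, with the other Myc VD mice at 5.40 to 11.07 TPM. Without it the log2 difference from Myc WT LZ went from -0.01 to -0.69. Myd88 was at 19.18 TPM in Myc VD LZ mouse 5, with the other mice at 4.04 to 6.48 TPM, and without it the log2 difference went from -0.26 to -0.69. In mouse 6 the 10 myeloid markers summed to 10.89 TPM, the lowest of the 11 libraries, and 9 of them were listed at 0. The 5 dendritic cell markers summed to 26.35 TPM there, the highest of the 11 libraries. Of this sum Flt3 gave 22.87 TPM, against 5.31 to 15.94 TPM in the other LZ libraries. Itgax and Siglech were at 0 in mouse 6, Zbtb46 at 1.44 and Xcr1 at 2.04 TPM. The 4 erythroid markers summed to 252.83 TPM in mouse 6, the highest of the LZ libraries. The part of such cells was not tested. MBCs, with 3 libraries, were not examined in this way.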

How the results depend on the processing

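The call of Tlr7 in MBCs held in all 18 settings run against Myc WT LZ and all 16 against Myc VD LZ, and no member was called between the genotypes in any setting. Depth is unknown, so the counting error of low genes such as Tlr2 and Tlr3 cannot be given, and values listed at 0 can be failed estimates. The cause of the moves below was not tested.

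In MBCs against Myc WT LZ, at an unadjusted p under 0.05 limma called 5 members and 11 pathway genes higher and 1 pathway gene lower. Pathway genes called higher were 3 without a trend, 1 with the mouse as a replicate block and 2 after scaling to B cell markers; 1 was called lower by quantile normalization and by that scaling, where Cd180 turned to -0.15. The replicate block, which also leaves out Myc WT LZ mouse 2, changed no call of a member. Over all genes 552 were called higher and 667 lower, 205 and 137 without that mouse, and 130 and 118 with the block as well. Leaving out a Myc WT LZ mouse left 205 to 254 higher and 137 to 265 lower over all genes, and no filter 329 and 279. MBC library 3 alone, whose spread was assumed to be that of the LZ group, gave 5 members higher and 1 lower and 12 pathway genes in each direction, where 2341 of all 12862 genes were called higher and 4338 lower, with Tlr4 at 1.10. With each library left out in turn, 1 to 3 members were called higher (Ly86 joined Tlr7 without MBC library 1, Tlr1 without library 3, with Tlr2, which passed the filter only through its high MBC libraries, and Tlr9 without library 4, where 571, 901 and 924 of all genes were called higher), 1 to 8 pathway genes higher (1 or 2 without any 1 Myc WT LZ mouse) and 0 to 1 lower (1 without MBC library 3), Tlr4 ran from -0.68 to 0.33, Tlr6 from -0.21 to 1.29, and the log2 ratio of Tlr1 to Tlr6 from -0.59 to 1.29.

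In Myc VD against Myc WT LZ, 8 pathway genes were lower at an unadjusted p under 0.05. By the median ratio, Tlr1 was at 0.038, Tlr4 at 0.31, Tlr6 at 0.28, Tlr9 at 0.30, Cd180 at 0.17 and Myd88 at 0.040. By quantile normalization, Tlr4 was at 0.20, Tlr6 at 0.37, Tlr9 at 0.21 and Cd180 at 0.18. Without ribosomal RNA genes, Tlr1 was at 0.0060, Tlr4 at 0.27, Tlr6 at 0.26, Tlr9 at 0.27, Cd180 at 0.14 and Myd88 at 0.0055. Relative to B cell markers, Tlr4 was at 0.088, Tlr6 at 0.094 and Tlr9 at 0.076. With each library left out, 0 to 1 pathway genes were lower (Ctss without Myc VD mouse 5, where 12 genes of all were higher and 242 lower in place of 1 and 5), Tlr3 ran from -0.14 to 1.03, Tlr4 from -0.69 to 0.34, Tlr6 from -0.21 to 0.38, Tlr9 from -0.17 to 0.17, Tlr1 from -0.42 to -0.06 (mouse 6 left out), Cd180 from -0.31 (mouse 5) to -0.07 (mouse 8), Ly86 from -0.85 (mouse 6) to -0.24 (mouse 8) and Myd88 from -0.69 (mouse 5) to -0.03 (mouse 8).

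In Myc VD LZ against MBCs, 5 members and 17 pathway genes were lower at an unadjusted p under 0.05, against 12.3% of all genes. The 17 include Ctsl, which passed the filter only through MBCs. With all groups in 1 fit 3 and 10 were lower, where calls over all genes went from 331 to 1023 lower. The pathway count fell from 3 to 1 by the median ratio, without a trend, by quantile normalization, without ribosomal RNA genes and relative to B cell markers, where Cd180 was at 0.089. With each library left out it was 1 to 4 (1 without Myc VD mouse 5, 7 or 8 or MBC library 1), Tlr4 ran from -0.61 to 0.67, Tlr6 from -1.30 to 0.20, Myd88 from -0.21 to 0.69, and the log2 ratio of Tlr1 to Tlr6 from -1.58 to 0.29.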
